A study of Cavia porcellus with 72 samples.

Results

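The genes described here encode voltage-gated calcium channel subunits, the calcium release channels of internal membranes, calmodulin, the calmodulin-dependent kinases and calcineurin. They were chosen by symbol alone (CACNA, CACNB, CACNG, CAMK, CALM, RYR, ITPR and PPP3 genes), and 41 of the 11927 genes in the count tables of the series carried such a symbol. The tables of F1 and F3 each held all 41, and that of F2 held 40, since RYR3 had no row there. By role they were 9 pore-forming alpha1 subunits, 2 alpha2delta subunits, 3 beta subunits, 5 gamma subunits, 5 intracellular release channels, 2 calmodulin genes, 4 subunits of calcium/calmodulin-dependent kinase II (CaMKII), 6 other calmodulin kinases, 1 CaMKII inhibitor with 1 calmodulin methyltransferase, and 3 calcineurin subunits. A further 13 guinea pig genes of RefSeq assembly mCavPor4.1 fit the same symbols and were not analysed here.

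RNA was sequenced from the hippocampus of juvenile female guinea pigs, Dunkin-Hartley animals on postnatal day 40. Pregnant F0 females had received the synthetic glucocorticoid betamethasone (sGC, labelled Beta) or saline vehicle (control), and F1 offspring were the fetuses of those pregnancies. The F2 and F3 offspring came through the paternal line, by mating F1 and then F2 males with females that took no part in the experiment, and their own mothers were left untreated. Each generation had 6 control animals, and there were 5 sGC animals in F1, 6 in F2 and 7 in F3, each animal from a different mother.

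Voltage-gated calcium channels open when a neuron depolarises. Their alpha1 subunit forms the pore, and alpha2delta and beta subunits bring it to the membrane and set how much current it carries. Several gamma subunits act instead as TARPs, auxiliary proteins that take AMPA-type glutamate receptors to the synapse. Calcium that enters through channels or leaves the endoplasmic reticulum through ryanodine and inositol trisphosphate receptors binds calmodulin. Calmodulin in turn switches on CaMKII, which strengthens synapses, and the phosphatase calcineurin, which weakens them, and the hippocampus is the region in which this pair has been studied most.

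Between 13507449 and 19767033 reads were counted per library, and levels are given as CPM, reads per 1000000 counted reads after TMM scaling. All 6 neuronal markers had rows in the 3 tables, and the summed level of the 5 hippocampal principal cell markers with a row was 197.6 to 280.6 CPM over all libraries. Libraries numbered 32 to 36 in the labels were all from sGC animals, namely F1 sGC replicates 4 and 5, F2 sGC replicate 6 and F3 sGC replicates 5 and 6, so calls of calcium genes and of the lists below that change without them are also given without them. F1 sGC replicate 4 stood apart: it held the highest or lowest level of its group for 30 of 40 calcium genes, against 11 to 14 for the other sGC libraries of F1. F3 sGC replicate 6 did so for 27 of 40 genes and F2 sGC replicate 6 for 24 of 39. Controls reached 19 of 40 in F1 (replicate 3), 22 of 39 in F2 (replicate 5) and 19 of 40 in F3 (replicate 5). F3 sGC replicate 5 did so for 0 of 40 genes. Its counts differed from those of F3 sGC replicates 1 to 4 and 7 by a chi-square per degree of freedom of 2.11 to 3.23, and from replicate 6 by 11.6, where pairs of the other F3 sGC libraries gave 4.15 to 16.6. Without it 288 genes were called in F3 in place of 573. The cause was not tested.

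sGC offspring were compared with control offspring of the same generation with the quasi-likelihood test of edgeR, and p-values were adjusted over all genes tested (Benjamini-Hochberg). In F1, 1 of the 40 calcium genes tested passed an adjusted p of 0.05, where 2.08% of all 11377 genes did. It was CACNA1I, which was higher (background 1.63%). In F2, none of 39 passed, and no gene of the 11414 tested did (0%). At an unadjusted p under 0.05 there were 3 calcium genes in F2, while 6.64% of all genes reached that level, and neither the likelihood ratio test nor DESeq2 called a calcium gene there. In F3, 4 of 40 passed, where 5.04% of all 11359 genes did. Of these, CACNA2D1, CACNA2D3 and CACNG5 were lower (background 2.87%) and CACNG4 was higher (background 2.17%). CACNA1S, the skeletal muscle pore subunit, reached at most 0.757 CPM in any library and was not tested in any generation.

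**Figure D1:**
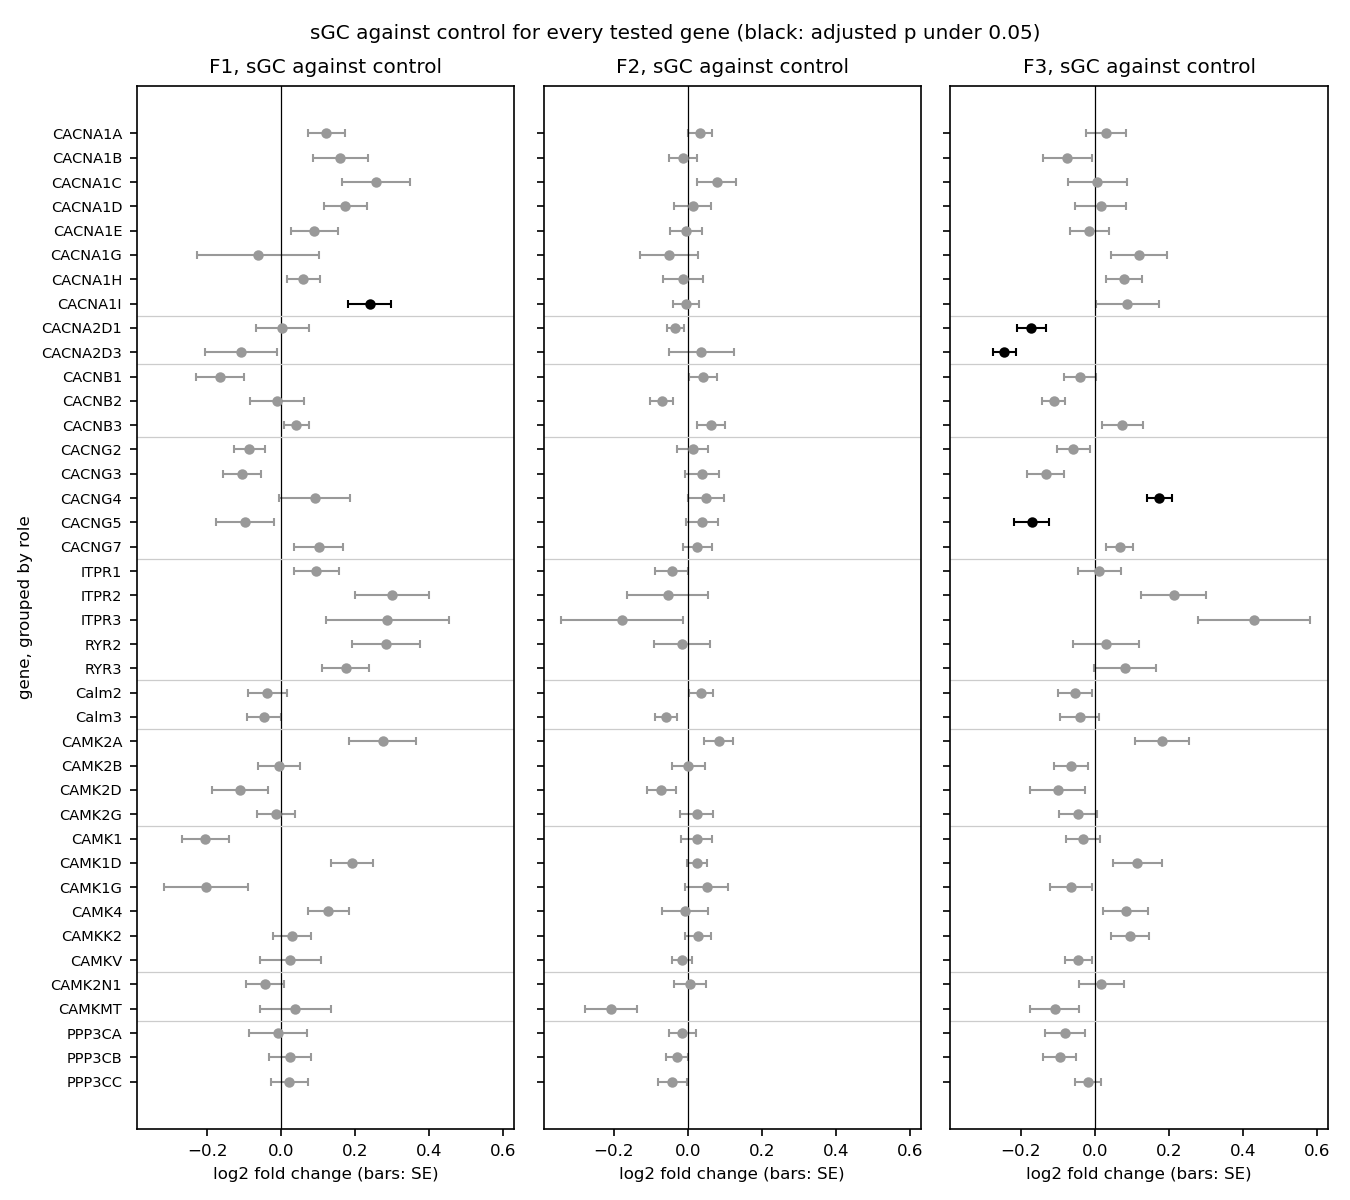
Log2 fold change (horizontal axis, sGC against control, bars for the SE) of each tested calcium gene (vertical axis, grouped by role) in F1, F2 and F3, with genes past an adjusted p of 0.05 in black. F1 shows CACNA1I in black, F2 shows no black point, and F3 shows CACNA2D1, CACNA2D3 and CACNG5 left of 0 and CACNG4 right of it.

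Over all the genes the effects centred near 0 in each generation. Their median log2 fold change was 0.03 in F1, 0.00 in F2 and -0.02 in F3, and that of all tested genes was -0.01, 0.00 and 0.00. Single effects ranged from -0.21 to 0.30 on the log2 scale in F1, from -0.21 to 0.08 in F2 and from -0.24 to 0.43 in F3. Positive values were found for 24 of 40 genes in F1 (background 48.3%), 20 of 39 in F2 (background 49.7%) and 19 of 40 in F3 (background 51.7%).

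The alpha2delta subunits, extracellular proteins that raise the number of channels at the presynaptic membrane, were both lower in F3 sGC offspring. CACNA2D3 had a lowest, median and highest level of 158.4, 167.8 and 173.9 CPM in the 6 F3 controls. In the 7 F3 sGC animals these levels were 135.9, 141.3 and 147.2 CPM. Every sGC animal was below every control, a pattern found in 2 of the 40 calcium genes and in 1.88% of all genes tested in F3. CACNA2D3 fell by 0.24 on the log2 scale (SE 0.0303, adjusted p = 0.00168), from 167 ± 5.89 CPM (SD, n = 6) to 141 ± 3.55 CPM (SD, n = 7), a change of -15.6%. Ranked by p among all genes tested in F3, CACNA2D3 was the second.

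CACNA2D1, a subunit bound by gabapentin, followed the same direction in F3. The study had already reported it as changed in F3 in both expression and methylation, with expression taken from these same libraries. Its lowest, median and highest levels were 332.9, 362.1 and 388.3 CPM in control and 298.7, 318.1 and 329.5 CPM in sGC animals. The groups again did not overlap. CACNA2D1 fell by 0.17 on the log2 scale (SE 0.0388, adjusted p = 0.0170), from 359 ± 21.9 CPM (SD, n = 6) to 318 ± 10.7 CPM (SD, n = 7). Both genes passed the threshold in each of the 13 fits that left out 1 library, and without libraries 32 to 36, where the adjusted p was 0.0109 for CACNA2D3 and 0.0415 for CACNA2D1. Without F3 sGC replicate 5 it was 0.00780 for CACNA2D3 and 0.0444 for CACNA2D1. With all 36 libraries fitted together, CACNA2D1 passed (adjusted p = 0.0386) and CACNA2D3 did not (adjusted p = 0.0706).

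In F1 the 5 sGC animals had CACNA2D3 levels of 175.1, 177.4, 159.6, 112.3 and 164.4 CPM, and the 6 controls ranged from 151.2 to 187.1 CPM around a median of 168.4. Only replicate 4 lay outside the control range, at the low end. The log2 fold change of CACNA2D3 in F1 was -0.11 (SE 0.0976, adjusted p = 0.567). CACNA2D1 in F1 stood at 356.4, 383.4, 388.9, 287.1 and 356.9 CPM in sGC animals, with controls between 325.0 and 386.2 CPM. Replicate 4 was below every control and replicate 3 above every control, and the log2 fold change was 0.00 (SE 0.0709, adjusted p = 0.983). In F2, CACNA2D1 had a log2 fold change of -0.03 (SE 0.0231, adjusted p = 0.796), with 421.2 to 433.7 CPM in control and 406.3 to 429.6 CPM in sGC animals. For CACNA2D3 the F2 log2 fold change was 0.04 (SE 0.0873, adjusted p = 0.948). F2 control replicate 1 stood at 120.6 CPM for CACNA2D3, below the 176.6 to 194.1 CPM of the other controls.

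The gamma subunits moved in both directions in F3. CACNG4, a TARP, had a lowest, median and highest level of 63.4, 68.3 and 71.6 CPM in control and of 72.8, 76.8 and 80.5 CPM in sGC animals. Every F3 sGC animal was above every control, which was so for 1 of 40 calcium genes and for 0.836% of all genes. CACNG4 rose by 0.17 on the log2 scale (SE 0.0341, adjusted p = 0.00902), from 67.8 ± 2.67 CPM (SD, n = 6) to 76.5 ± 2.44 CPM (SD, n = 7). It passed in each of the 13 fits without 1 library, and without libraries 32 to 36 its adjusted p was 0.0310. With all 36 libraries fitted together CACNG4 did not pass (adjusted p = 0.109).

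CACNG5, another TARP, had levels of 44.9, 47.6 and 54.03 CPM (lowest, median, highest) in F3 control and of 39.9, 43.4 and 45.9 CPM in F3 sGC animals. All 7 sGC animals were below the control mean and 5 were below the lowest control, so the groups overlapped. CACNG5 fell by 0.17 on the log2 scale (SE 0.0471, adjusted p = 0.0463). This call was made in 3 of the 13 fits that left out 1 library, with adjusted p-values from 0.0356 to 0.0906, and was lost without libraries 32 to 36 (adjusted p = 0.133) and with all libraries fitted together (adjusted p = 0.0804).

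Of the other gamma subunits in F3, CACNG3 had a log2 fold change of -0.13 (adjusted p = 0.125), CACNG2 of -0.06 (adjusted p = 0.489) and CACNG7 of 0.07 (adjusted p = 0.317). CACNG2, also called stargazin, and CACNG3 are TARPs as well. In F1 none of the 5 gamma subunits passed the test. There CACNG4 stood at 67.7, 72.0, 57.6, 93.0 and 68.4 CPM in the sGC animals, where controls ranged from 62.8 to 75.7 CPM, and CACNG5 at 50.9, 52.4, 52.8, 36.8 and 49.8 CPM, where controls ranged from 47.8 to 56.1 CPM. Replicate 4 held the extreme value for both genes, the highest for CACNG4 and the lowest for CACNG5. In F2 the 5 log2 fold changes of gamma subunits lay between 0.01 and 0.05, and the smallest adjusted p among them was 0.859.

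**Figure D2:**
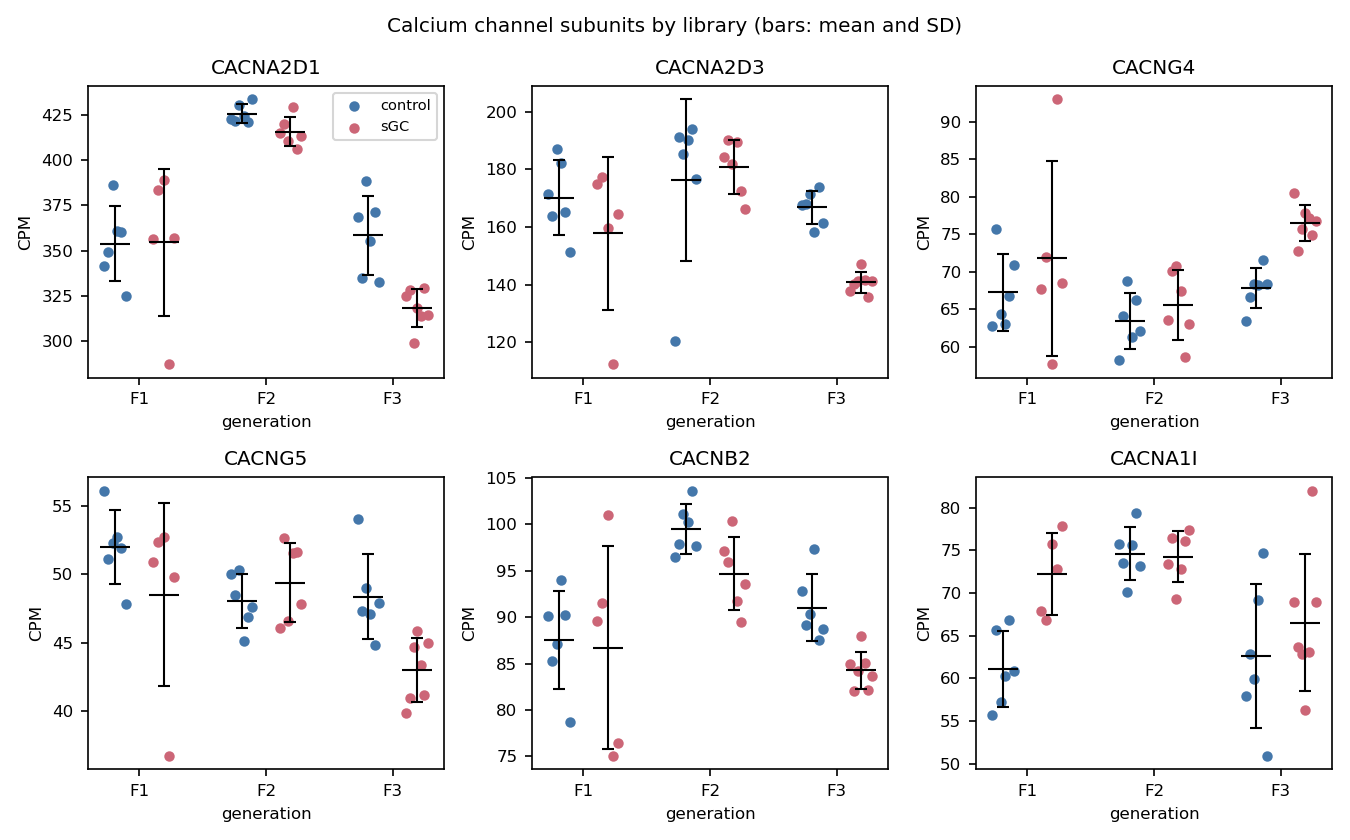
CPM (vertical axis) of 6 channel subunits in every library, by generation (horizontal axis) and group, with bars for the mean and SD. In F3 the sGC points of CACNA2D1 and CACNA2D3 lie below all control points and those of CACNG4 above them, and in F1 a single sGC library lies at 112.3 CPM for CACNA2D3 and at 93.0 CPM for CACNG4.

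Markers of several cell types also moved in F3. The 9 astrocyte markers all had positive log2 fold changes in F3 sGC animals and 4 passed the test (SLC1A2, GLUL, S100B and Slc4a4). Their summed level was 9424 to 10410 CPM in control and 10640 to 12250 CPM in sGC animals, without overlap. The 6 markers of inhibitory neurons all had negative log2 fold changes in F3 and GAD1 and GAD2 passed, with sums of 661.5 to 740.1 CPM in control and 570.2 to 673.1 CPM in sGC animals. Of the 6 general neuronal markers, 5 had negative log2 fold changes and SNAP25, SYT1 and NEFL passed as lower. RBFOX3 (-0.09), STMN2 (-0.08) and MAP2 (0.18, adjusted p = 0.136) did not pass, and the sums were 6047 to 6689 CPM in control and 5902 to 6530 CPM in sGC animals. SLC1A2, S100B and Slc4a4, the same 3 neuronal markers, and GAD1, GAD2 and SLC32A1 were called in F3 without libraries 32 to 36. Of these markers, GAD1, GAD2, SNAP25 and SYT1 had been reported by the study as changed in F3, from the same libraries. A common direction was not particular to these lists. All tested markers of microglia (6), endothelial cells (5), oligodendrocyte precursors (4) and meningeal fibroblasts (5) had positive log2 fold changes in F3. The 3 excitatory neuron markers tested all had negative values, and no marker of these 5 lists passed in F3.

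Markers moved in F1 as well. The 9 astrocyte markers all had positive log2 fold changes there and Slc4a4 passed (adjusted p = 0.0451). The astrocyte sum reached 15910 CPM in sGC replicate 4, where the other sGC animals had 9720 to 12860 CPM and controls had 8508 to 11100 CPM. The 5 meningeal fibroblast markers tested all had negative log2 fold changes in F1, and DCN (adjusted p = 0.0494) and LUM (adjusted p = 0.0258) passed. Their sums were 57.98 to 145.9 CPM in control and 33.41 to 70.51 CPM in sGC animals. LUM passed in F1 without libraries 32 to 36 (adjusted p = 0.0459), and Slc4a4 (adjusted p = 0.0956) and DCN (adjusted p = 0.0577) did not. Of 5 thalamic markers, RORA passed as higher in F1 (adjusted p = 0.00434, and 0.0179 without those libraries) and LEF1 in F3 (adjusted p = 0.0153, and 0.0638 without them). The thalamic list had no common direction, with 3 of 5 log2 fold changes negative in F1 and 2 of 5 in F3. Its sums overlapped, at 69.37 to 92.07 CPM in F1 control and 78.16 to 93.32 CPM in F1 sGC animals. In F3 they were 81.14 to 108.4 CPM in control and 81.2 to 104.5 CPM in sGC animals. No marker of the neuronal, inhibitory neuron and astrocyte lists was at 0, and the part of the markers in the F1 and F3 results was not tested. In whole tissue, fewer cells of a type and less RNA per cell cannot be told apart.

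**Figure D3:**
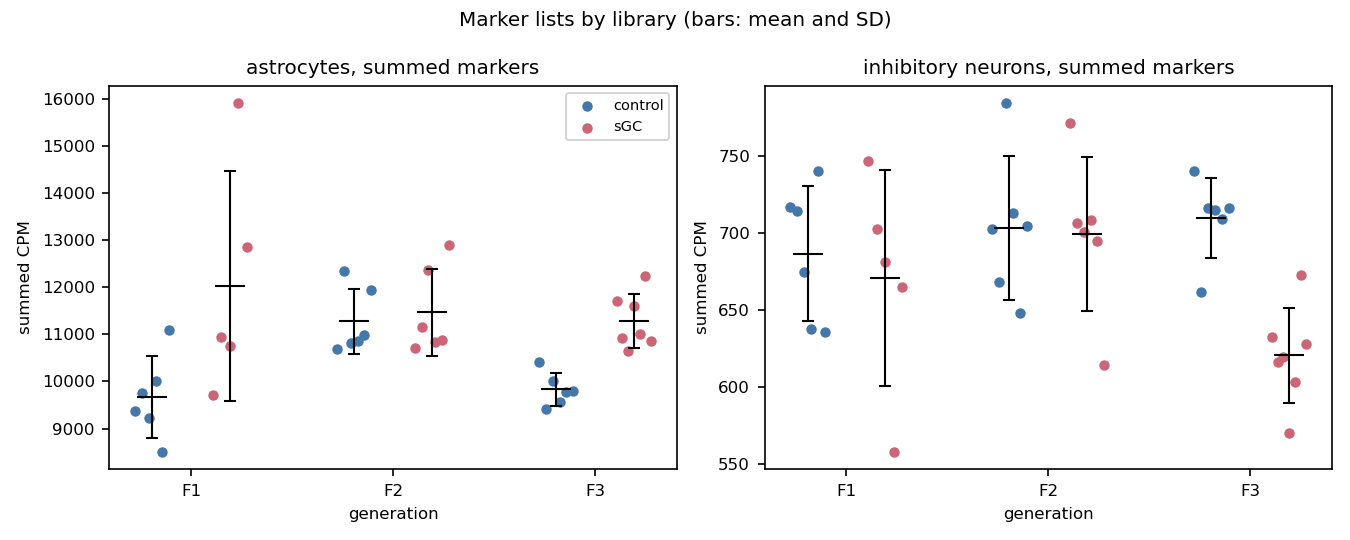
Summed CPM (vertical axis) of 9 astrocyte markers and of 6 inhibitory neuron markers in every library, by generation (horizontal axis) and group, with bars for the mean and SD. In F3 the astrocyte sums of sGC animals (10640 to 12250 CPM) lie above all controls, and the inhibitory neuron sums lie lower with some overlap.

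The beta subunits bind the alpha1 pore inside the cell and protect it from degradation. CACNB2 came close to the threshold in F3, with levels of 87.5, 89.7 and 97.4 CPM (lowest, median, highest) in control and of 82.0, 84.2 and 87.9 CPM in sGC animals. All 7 sGC animals were below the control mean and 6 were below the lowest control. Its log2 fold change was -0.11 (SE 0.0318, adjusted p = 0.0516). The likelihood ratio test and DESeq2 called CACNB2 in F3, and the quasi-likelihood test did not. For CACNB2 in F2 the log2 fold change was -0.07 (unadjusted p = 0.0394, adjusted p = 0.734). CACNB1, the beta subunit best known from skeletal muscle, had a log2 fold change of -0.17 in F1 (adjusted p = 0.187) and of -0.04 in F3 (adjusted p = 0.654), and CACNB3 had 0.04 in F1 (adjusted p = 0.528) and 0.07 in F3 (adjusted p = 0.480).

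Among the alpha1 subunits, CACNA1I rose in F1. It forms a low-voltage-activated T-type channel that supports burst firing. Its levels in the 5 F1 sGC animals were 67.9, 66.8, 75.7, 72.8 and 77.9 CPM. The 6 F1 controls had a lowest, median and highest level of 55.7, 60.6 and 66.8 CPM, so that no sGC animal lay within the control range, although the nearest pair of CACNA1I values was 66.76 and 66.82 CPM. Groups separated upwards in this way for 1 of 40 calcium genes and for 2.45% of all genes in F1. CACNA1I rose by 0.24 on the log2 scale (SE 0.0572, adjusted p = 0.0492), from 61.1 ± 4.42 CPM (SD, n = 6) to 72.2 ± 4.80 CPM (SD, n = 5). The call was made in 1 of the 11 fits that left out 1 library, with adjusted p-values from 0.0389 to 0.110, and was lost without libraries 32 to 36 (adjusted p = 0.132). In F3 the log2 fold change of CACNA1I was 0.09 (adjusted p = 0.607) and in F2 -0.01 (adjusted p = 0.983).

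The other alpha1 subunits did not pass the test in F1, F2 or F3. In F1, 7 of the 8 tested had positive log2 fold changes, with a median of 0.14 against -0.01 for all genes, and 5 reached an unadjusted p under 0.05, a level that 19.6% of all genes reached. CACNA1C, an L-type pore that couples activity to transcription, had a log2 fold change of 0.26 in F1 (SE 0.0922, adjusted p = 0.147). CACNA1D, the other L-type pore of the brain, had 0.17 (SE 0.0582, adjusted p = 0.125). CACNA1A and CACNA1B, the pores that drive transmitter release, had 0.12 (adjusted p = 0.197) and 0.16 (adjusted p = 0.251). CACNA1E, the R-type pore, had the highest CPM of the alpha1 subunits and log2 fold changes of 0.09 in F1 (adjusted p = 0.455), -0.01 in F2 (adjusted p = 0.986) and -0.02 in F3 (adjusted p = 0.909).

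For CACNA1B the F1 sGC animals stood at 175.4, 189.8, 187.8, 138.4 and 196.6 CPM, with controls from 151.4 to 171.6 CPM. Of these, 4 animals were above every control and replicate 4 was below every control. Without libraries 32 to 36, CACNA1B passed in F1 with a log2 fold change of 0.22 (adjusted p = 0.0459). It was the sole calcium gene to do so, where 0.845% of all genes passed. In F3, CACNA1B had a log2 fold change of -0.07 (adjusted p = 0.560), and the 8 alpha1 effects had a median of 0.02. In F2 their median was -0.01.

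The release channels had positive log2 fold changes for 5 of 5 genes in both F1 and F3, and none passed the test. Their median was 0.28 in F1 and 0.08 in F3, and for 4 tested genes -0.05 in F2. RYR2, the ryanodine receptor also found in heart, stood at 189.4, 242.2, 214.5, 183.5 and 276.1 CPM in the F1 sGC animals, and at 167.8, 180.0 and 196.6 CPM (lowest, median, highest) in F1 controls. All 5 sGC animals were above the control mean and 3 were above the highest control. The log2 fold change of RYR2 in F1 was 0.28 (SE 0.0911, adjusted p = 0.113), and it passed under the likelihood ratio test and DESeq2. RYR2 also passed without sGC replicate 4, and in no other fit of F1.

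Among the inositol trisphosphate receptors, ITPR2, which is prominent in astrocytes, had a log2 fold change of 0.30 in F1 (SE 0.101, adjusted p = 0.127) and 0.21 in F3 (SE 0.0880, adjusted p = 0.172). ITPR3 had 0.29 in F1 (SE 0.165, adjusted p = 0.352) and 0.43 in F3 (SE 0.152, adjusted p = 0.112). The F3 levels of ITPR3 were 6.07, 7.91 and 10.5 CPM (lowest, median, highest) in control and 7.43, 10.6 and 14.4 CPM in sGC animals. The groups overlapped, with 4 of 7 sGC animals above the highest control. ITPR1, the main neuronal form, had 0.09 in F1 (adjusted p = 0.404) and 0.01 in F3 (adjusted p = 0.935). RYR3, the remaining ryanodine receptor with a row, had 0.17 in F1 (adjusted p = 0.155) and 0.08 in F3 (adjusted p = 0.6245).

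CAMK2A, the main forebrain subunit of CaMKII and a postsynaptic kinase needed for long-term potentiation, had positive log2 fold changes in each generation and passed in none of them. In F1 the sGC animals stood at 5462, 6422, 6169, 8174 and 6830 CPM, and the controls at 5089, 5428 and 5934 CPM (lowest, median, highest). In F2 the levels were 5000, 5402 and 5625 CPM in control and 5154, 5696 and 6157 CPM in sGC animals, and in F3 they were 5394, 5534 and 5879 CPM in control and 5022, 6648 and 7491 CPM in sGC animals. The highest sGC value exceeded the highest control value in each generation, and the groups overlapped in each. Above the control mean of their generation were 4 of 5 sGC animals in F1, 5 of 6 in F2 and 6 of 7 in F3.

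The log2 fold change of CAMK2A was 0.28 in F1 (SE 0.0909, adjusted p = 0.122), 0.08 in F2 (SE 0.0387, adjusted p = 0.744) and 0.18 in F3 (SE 0.0731, adjusted p = 0.160). In F1, CAMK2A passed under the likelihood ratio test (adjusted p = 0.0427), under DESeq2 (adjusted p = 0.0305) and with all 36 libraries fitted together (adjusted p = 0.0245). It did not pass in F1 without libraries 32 to 36, nor in any of the 11 fits that left out 1 library (adjusted p from 0.0519 to 0.221). In F3, CAMK2A passed in 1 of the 13 fits that left out 1 library, the fit without sGC replicate 6 (adjusted p = 0.0248). The highest adjusted p of those 13 fits was 0.263, without sGC replicate 5. The mean of the 3 effects was tested in a fit of all 36 libraries, in which 2 of 39 calcium genes passed, where 8.53% of all 11390 genes did. Both were higher (background 5.07%). For CAMK2A this mean was 0.18 (SE 0.0435, adjusted p = 0.00969), and it passed in each of the 36 fits that left out 1 library. The other gene was CAMK1D, with a mean effect of 0.11 (SE 0.0332, adjusted p = 0.0306), which passed in 33 of the 36 fits. Without libraries 32 to 36 neither passed, with a mean of 0.14 for CAMK2A (adjusted p = 0.0537) and of 0.11 for CAMK1D (adjusted p = 0.0991). Of all genes, 54 then passed in place of 971.

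**Figure D4:**
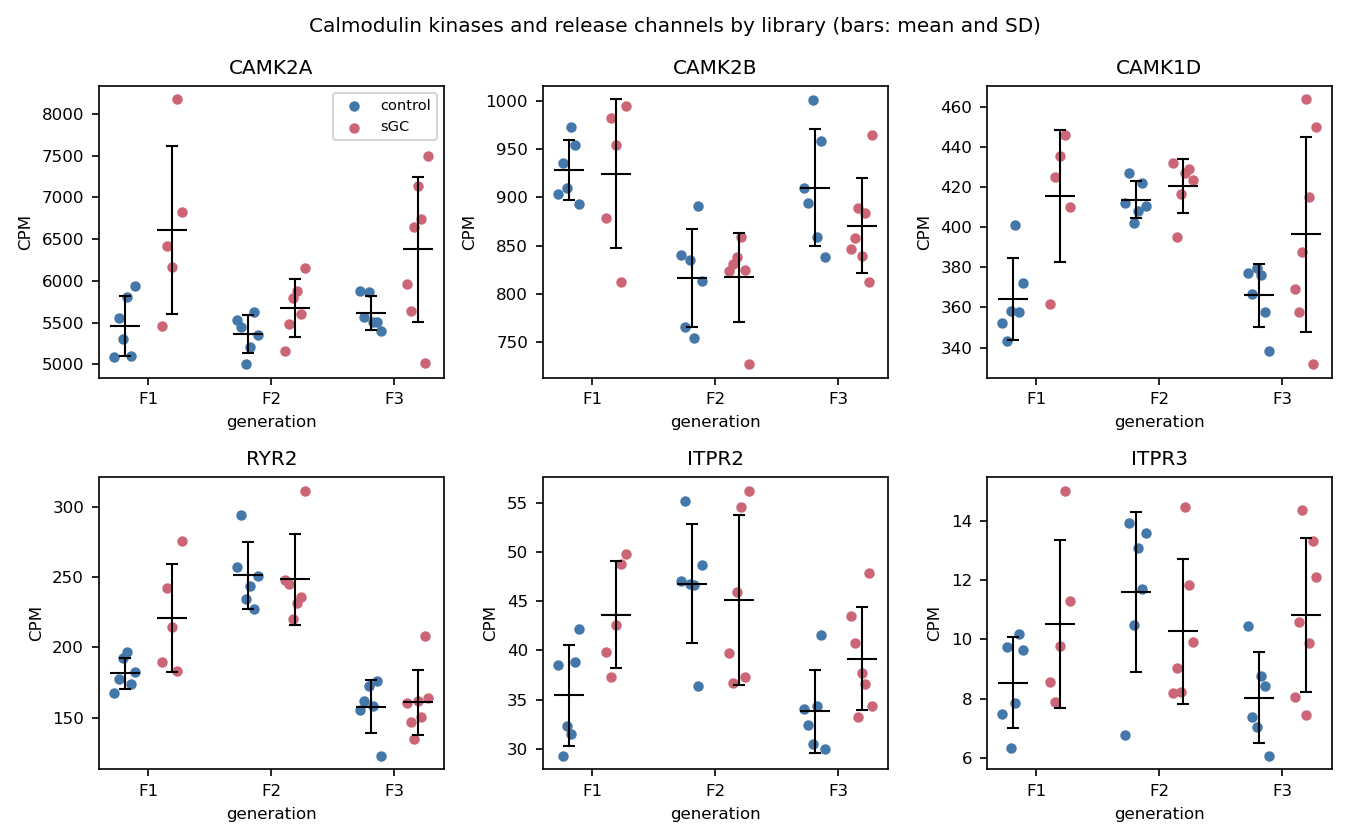
CPM (vertical axis) of 3 calmodulin kinases and 3 release channels in every library, by generation (horizontal axis) and group, with bars for the mean and SD. The sGC libraries of CAMK2A spread more widely than the controls in F1 (5462 to 8174 CPM) and F3 (5022 to 7491 CPM).

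The remaining CaMKII subunits passed in no generation. CAMK2B, the subunit that anchors the kinase to actin, had log2 fold changes of -0.01 in F1 (SE 0.0564, adjusted p = 0.967), 0.00 in F2 (SE 0.0438, adjusted p = 0.997) and -0.06 in F3 (SE 0.0458, adjusted p = 0.464). CAMK2D had -0.11 in F1 (SE 0.0759, adjusted p = 0.439), -0.07 in F2 (SE 0.0396, adjusted p = 0.764) and -0.10 in F3 (SE 0.0740, adjusted p = 0.475). CAMK2G had values between -0.05 and 0.02 in the 3 generations. Whether the subunits differed from each other was not tested.

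The other calmodulin kinases are not subunits of CaMKII. CAMK1D, whose family acts in neurite growth, stood in F1 at 361.5, 425.4, 435.8, 446.0 and 410.2 CPM in sGC animals, and at 343.3, 357.9 and 401.4 CPM (lowest, median, highest) in controls. Above the highest control were 4 of the 5 sGC animals. Its log2 fold change was 0.19 in F1 (SE 0.0576, adjusted p = 0.0933), 0.02 in F2 (SE 0.0275, adjusted p = 0.876) and 0.11 in F3 (SE 0.0662, adjusted p = 0.339). In F1, CAMK1D passed under the likelihood ratio test (adjusted p = 0.0439), under DESeq2 (adjusted p = 0.0246) and with all libraries fitted together (adjusted p = 0.0357). Of the 11 F1 fits that left out 1 library, 1 called CAMK1D (adjusted p from 0.0264 to 0.171), and it did not pass without libraries 32 to 36. CAMK1 had -0.21 in F1 (SE 0.0636, adjusted p = 0.101), with 62.9, 71.6 and 75.1 CPM (lowest, median, highest) in control and 70.3, 62.5, 58.3, 55.4 and 58.8 CPM in the sGC animals, so that 4 of 5 were below the lowest control. With all libraries fitted together CAMK1 passed in F1 (adjusted p = 0.0225). It was called in 1 of the 11 F1 fits that left out 1 library (adjusted p from 0.0292 to 0.206), and not without libraries 32 to 36. CAMK4, the nuclear kinase that phosphorylates CREB, had 0.13 in F1 (adjusted p = 0.216) and 0.08 in F3 (adjusted p = 0.4656). CAMKK2, which activates CAMK1 and CAMK4, had 0.03 in F1 and 0.10 in F3, and CAMKV, a kinase-like protein without catalytic activity, had 0.02 and -0.04.

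None of the calmodulin genes, the CaMKII inhibitor or the calmodulin methyltransferase passed the test in any generation. Calm2 and Calm3, which encode the same calmodulin protein, had log2 fold changes of -0.04 and -0.05 in F1, 0.03 and -0.06 in F2, and -0.05 and -0.04 in F3. How reads that match more than 1 gene were counted is not given in the sources used here. CAMK2N1, the CaMKII inhibitor, had -0.04 in F1, 0.01 in F2 and 0.02 in F3. CAMKMT, the calmodulin methyltransferase, had the smallest p of the calcium genes in F2, with 11.6, 13.3 and 13.7 CPM (lowest, median, highest) in control and 10.1, 10.9 and 12.5 CPM in sGC animals. Those groups overlapped, and the log2 fold change was -0.21 (SE 0.0696, unadjusted p = 0.00868, adjusted p = 0.678).

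Calcineurin dephosphorylates its targets on calcium entry, among them the NFAT transcription factors. Its catalytic subunits had negative log2 fold changes for 3 of 3 genes in F3, namely -0.08 for PPP3CA (adjusted p = 0.432), -0.09 for PPP3CB (adjusted p = 0.234) and -0.02 for PPP3CC (adjusted p = 0.823). In F1 the values were -0.01, 0.02 and 0.02 in the same order, and in F2 they were -0.02, -0.03 and -0.04. None of the 3 subunits passed in any generation.

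Whether an effect of sGC differed between generations was tested as a difference of 2 effects over all 36 libraries, and 0 of 39 calcium genes passed for any pair of generations. The background was 0.29% for F2 against F1, 0% for F3 against F1 and 0% for F3 against F2, and the likelihood ratio test and DESeq2 called no calcium gene either. At an unadjusted p under 0.05 there were 8 of 39 for F2 against F1 (background 16.8%), 4 for F3 against F1 (background 13.1%) and 5 for F3 against F2 (background 9.08%). For CACNA2D1 the F3 effect minus the F1 effect was -0.18 (SE 0.0682, adjusted p = 0.250), and for CACNA2D3 the F3 effect minus the F2 effect was -0.28 (SE 0.113, adjusted p = 0.514). For CACNA1I the F2 effect minus the F1 effect was -0.25 (SE 0.101, adjusted p = 0.197). Without libraries 32 to 36, CACNA1B, CACNA2D1 and CACNB2 passed for F3 against F1, with 431 of 11418 genes passing in all. Leaving out F1 sGC replicate 4 alone gave CACNA1B and CACNA2D1, with 454 genes in all. Effects past the threshold in F1 or F3 are thus not shown to be particular to that generation.

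Control levels of the calcium genes differed mainly between the F2 table and the other tables. Among the 18 control libraries, 25 of 39 calcium genes passed a test of any difference between generations, where 44.8% of all 11311 genes did. With the controls of F1 and F3 only, 0 of 39 calcium genes and 0 of 11238 genes passed, and the smallest adjusted p of a calcium gene was 0.518. The F2 control level differed from that of F1 by over 2-fold for 454 genes (4.01%), and the F3 level for 5 genes (0.0442%). CACNG7, a TARP, stood at 122 ± 8.58 CPM in F1 control, 819 ± 40.0 CPM in F2 control and 133 ± 6.59 CPM in F3 control (SD, n = 6 each), with levels scaled over all 36 libraries. All 12 F2 libraries, control and sGC, held between 769.9 and 895.9 CPM for CACNG7, and the 24 others between 111.4 and 154.3 CPM.

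PPP3CA, a catalytic calcineurin subunit, was lower in the F2 table, at 1219 ± 46.8 CPM in control against 2338 ± 179 CPM in F1 and 2344 ± 64.6 CPM in F3 (SD, n = 6 each). RYR3 had 835 to 1229 reads in each F1 library and 692 to 1273 in each F3 library, and no row in F2. In all, 159 genes had a row in F1 and F3 but not in F2, and 218 had a row in F2 alone. The other genes that passed across controls had smaller differences. CACNA1E stood at 281 CPM in F1 control, 327 CPM in F2 control and 253 CPM in F3 control. The log2 level in F2 control minus that in F1 control was 0.23 for CACNA1B, 0.12 for CACNA1C, 0.22 for CACNA1D, 0.22 for CACNA1E, 0.24 for CACNA1I and 0.22 for CACNA2D1. For the beta subunits this difference was -0.40 for CACNB1, 0.14 for CACNB2 and -0.16 for CACNB3, and for gamma subunits -0.20 for CACNG2, -0.51 for CACNG3, -0.13 for CACNG4 and -0.16 for CACNG5. The release channels were all positive, with 0.38 for ITPR1, 0.36 for ITPR2, 0.39 for ITPR3 and 0.42 for RYR2. In the calmodulin and kinase groups it was -0.17 for Calm2, -0.16 for CAMK1, 0.14 for CAMK1D, -0.23 for CAMK2B and 0.29 for CAMK4, and PPP3CC had 0.19. The annotation behind each count table is not given in the sources used here, and generation and table cannot be told apart, so these differences describe the tables, and effects of sGC were taken within a table.

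**Figure D5:**
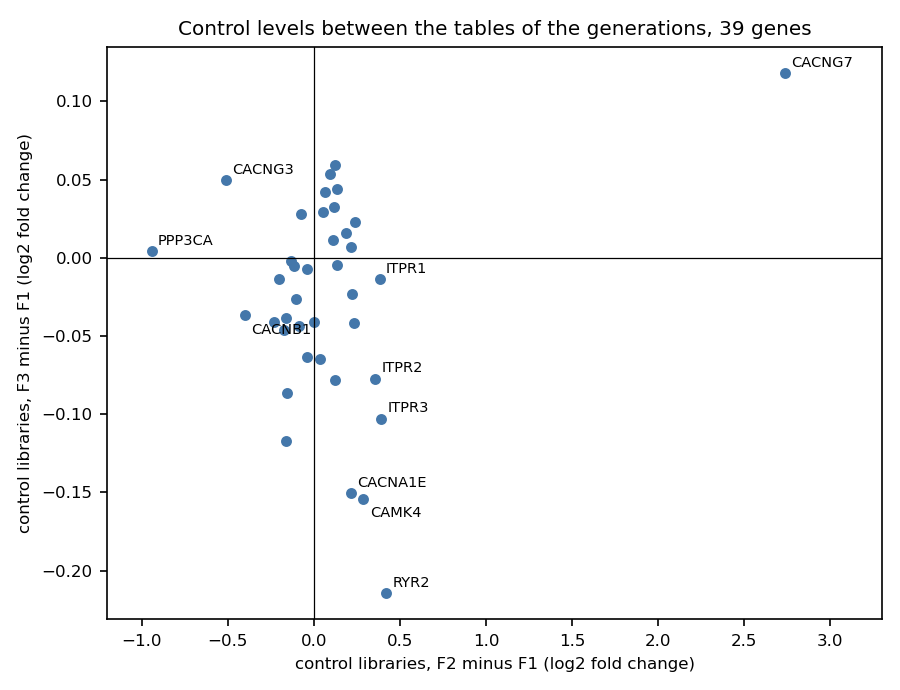
Log2 fold change of control levels in F2 against F1 (horizontal axis) and in F3 against F1 (vertical axis) for 39 calcium genes, 1 point per gene. The horizontal spread runs from -0.94 (PPP3CA) to 2.738 (CACNG7), and the vertical spread from -0.21 (RYR2) to 0.12 (CACNG7).

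A list of 75 further calcium handling genes (pumps, exchangers, glutamate receptors, calcium sensors, and synaptic and nuclear targets) was tested in the same fits. It was written with earlier results of these data known, so its shares of called genes describe the list and are no test of it. In F1, 3 of 68 tested genes passed (4.41%), all higher, where 2.08% of all genes passed and 1.63% were higher. In F2 none of 70 passed (background 0%). CREB1, the transcription factor that CAMK4 phosphorylates, rose by 0.28 on the log2 scale (SE 0.0674, adjusted p = 0.0494). NOS1, the neuronal nitric oxide synthase that calmodulin activates, rose by 0.32 (SE 0.0674, adjusted p = 0.0330). SLC24A2, a sodium/calcium exchanger, rose by 0.37 (SE 0.0901, adjusted p = 0.0497). SLC24A2 also passed without libraries 32 to 36 (adjusted p = 0.00649), and CREB1 (adjusted p = 0.0941) and NOS1 (adjusted p = 0.0648) did not.

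In F3, 9 of the 68 genes passed, 3 higher and 6 lower (13.2%, with 5.04% over all genes). GRIA1 and DLG4 among them had been reported by the study as changed in F3, and the list was not chosen independently of these data. The lower genes were ATP2A2, the calcium pump of the endoplasmic reticulum (-0.16, adjusted p = 0.00676), GRIA1, an AMPA receptor subunit (-0.14, adjusted p = 0.0227), SYN1, a synaptic vesicle protein phosphorylated by CaMKII (-0.18, adjusted p = 0.0142), STIM2, a sensor of stored calcium (-0.16, adjusted p = 0.0265), MCU, the mitochondrial calcium channel (-0.16, adjusted p = 0.0204), and the exchanger SLC24A3 (-0.12, adjusted p = 0.0371). The higher genes were NFATC4, a transcription factor activated by calcineurin (0.66, adjusted p = 0.00540), S100B, a calcium-binding protein of astrocytes (0.23, adjusted p = 0.0156), and DLG4, the postsynaptic scaffold PSD-95 (0.14, adjusted p = 0.0470). Without libraries 32 to 36, 8 genes of the list passed in F3, 6 of them among these 9. GRIA1 (adjusted p = 0.0602), STIM2 (adjusted p = 0.0857) and SLC24A3 (adjusted p = 0.0909) did not pass then, and NCS1 (adjusted p = 0.0486) and TRPC4 (adjusted p = 0.0398) did. S100B was also in the astrocyte list above, and the part of cell make-up in these values was not tested.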

How the data were processed

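Hippocampal RNA of 36 animals was sequenced, and the 3 count tables, 1 per generation, hold read counts that the authors deposited as raw counts per gene, without normalization. The submitters' processing notes name TopHat2 and edgeR. The counting tool, annotation and genome build of the count tables are not given in the sources used here. The other 6 files, which hold only the authors' own comparisons of methylation and expression (fold changes, differences and p-values), were not used, and 0 count columns could not be mapped to a sample.

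Genes were kept by filterByExpr (minimum count 10, minimum total count 15), scaling used TMM, and edgeR 4.0.16 in R 4.3.3 (glmQLFit and glmQLFTest, the quasi-likelihood test) compared the sGC and control animals of a generation. P-values were adjusted by Benjamini-Hochberg over all genes tested, with a threshold of 0.05, and called or passed means below it. Differences between generations, the mean effect and the test across controls used genes present in all 3 tables. CPM are mean ± SD over animals. Alternatives were the likelihood ratio test that the study names, DESeq2 1.42.0, RLE size factors, no filter, a replicate block, a joint fit, fits without libraries 32 to 36 and leaving out each library. Fits on F1 and F3 libraries only, and the counts of calcium handling and marker lists without libraries 32 to 36, were added after seeing the data.

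The genes, marker lists and calcium handling list were chosen with earlier results of these data known. Values are given for genes called in any test, the 3 with the smallest p per generation, the gene with the highest CPM in each role, and CACNA2D1, CACNA1B, CAMK2A, CAMK2B and CAMK2D, which the study names. Other genes are given with the group of their role. All libraries of a group differed by more than sampling noise (chi-square per degree of freedom 2.11 to 28.9 over 91 pairs). On simulated counts with 200 genes changed 1.5-fold, the test found 89.3% of those tested in F1, 90.5% in F2 and 93.0% in F3. The raised genes among them had a median log2 fold change of 0.581 in F1, 0.585 in F2 and 0.584 in F3. The largest effect of a calcium gene within a generation was 0.43 on the log2 scale (ITPR3 in F3). How often the test finds effects of that size or smaller was not simulated. Equal replicate numbers did not pair animals: the correlation of their deviations was -0.387 to 0.317 and above 0.1 for 3 of 17 pairs.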

Additional observations from a re-analysis of the deposited data

Results flagged for a closer look

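In 31 of the genes, each of the 6 groups was examined for a highest or lowest animal far from the others by Dixon's ratio. Of 186 gene and group combinations, 11 were flagged (5.91%), and chance flags about 1 in 20 groups. In F1 sGC replicate 4, CACNA2D3 was low at 112.3 CPM (others 159.6 to 177.4 CPM) and CACNG5 was low at 36.75 CPM (others 49.81 to 52.76 CPM). In F2 control replicate 1, CACNA2D3 was low at 120.6 CPM (others 176.6 to 194.1 CPM).

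In F2 sGC replicate 6, CAMK2B was low at 727 CPM (others 823.8 to 858.7 CPM) and RYR2 was high at 311.7 CPM (others 220.0 to 248.0 CPM). RYR2 was also high in F3 sGC replicate 6, at 208.1 CPM (others 134.9 to 163.9 CPM). F2 sGC animals gave 3 more low values, CACNA1B at 175.6 CPM in replicate 3, CACNA1D at 31.75 CPM in replicate 4 and PPP3CC at 42.58 CPM in replicate 5. The last were CAMK1, high at 73.91 CPM in F3 sGC replicate 3 (others 62.39 to 65.49 CPM), and CAMK2D, high at 151.4 CPM in F3 control replicate 1 (others 119.1 to 131.1 CPM). Of the 11 values, 5 belonged to libraries 32 to 36, namely F1 sGC replicate 4, F2 sGC replicate 6 and F3 sGC replicate 6.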

How the results depend on the processing

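The number of calcium genes called in F1 was 1, and 4 under the likelihood ratio test, under DESeq2 and with all 36 libraries fitted together, 0 with the replicate block, and 0 to 3 without 1 library each (3 without sGC replicate 1 or 4). In F3 it was 4 (5.04% of all genes). With the replicate block it was 1 (CACNA2D3, with 1.51% of all genes), with all libraries fitted together 1 (CACNA2D1, with 2.93%). Without 1 library each it was 3 to 5 (2.54% to 5.63%). Without libraries 32 to 36 it was 3 for F3 against F1 (3.77% of all genes), where the main fit gave 0 (0%). For the mean effect it was then 0 (0.473%), where the main fit gave 2 (8.53%). With F1 and F3 libraries only, the mean effect gave 5 of 39, where 10.9% of all 11336 genes passed. The controls of F1 and F3 alone gave 0 in place of 25 (0% of all genes in place of 44.8%). Without 1 library each, the ranges were 0 to 1 for F2 against F1 (0% to 1.92% of all genes) and 0 to 2 for F3 against F1 (0% to 3.98%). They were 1 to 4 for the mean effect (4.73% to 10.4%) and 21 to 26 for controls (39.4% to 45.6%). Equal replicate numbers were not shown to pair animals; with the block, CACNA1I in F1 had an adjusted p of 0.0926, CACNA2D1 in F3 0.118, CACNG4 in F3 0.0666 and CACNG5 in F3 0.134, and 3 of 17 sGC animals correlated best with their own number. The cause of these changes was not tested.

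Counts of all genes called moved too. In F1 it was 237, against 598 by likelihood ratio, 658 by DESeq2, 68 with the block, 852 fitted together, 97 without libraries 32 to 36, and 56 to 342 without 1 library. In F3 it was 573 (5.04% of genes), against 937 by DESeq2, 1.51% of genes with the block, 334 fitted together, 317 without libraries 32 to 36, and 288 to 639 without 1 library. In F2 it was 0, against 6 by likelihood ratio, 10 by DESeq2 and up to 1 without 1 library. For F2 against F1 it was 33, against 168, 202, 66 (no filter), 4 (block), 68 (without libraries 32 to 36) and 0 to 219 without 1 library. For F3 against F1 it was 0, against 58 by likelihood ratio, 62 by DESeq2, 431 without libraries 32 to 36 and up to 454 without 1 library. For the mean effect it was 971, against 54 without libraries 32 to 36 and 539 to 1190 without 1 library.

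Direction turned only for log2 fold changes near 0. CACNA2D1 in F1 was -0.02629 with the block and -0.03195 to 0.07244 without 1 library each. CAMK2B in F1 was 0.0003193 without the filter, 0.001735 fitted together, 0.01737 without libraries 32 to 36 and -0.02857 to 0.03918 without 1 library. CACNA1B in F2 ranged from -0.03247 to 0.01159 and CAMK2B in F2 from -0.02067 to 0.03249 without 1 library. RLE size factors changed no count of calcium genes.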
